A study of Homo sapiens with 8 samples.

Results

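Calcineurin and store-operated calcium entry form one signalling route, and 10 of its genes are described here across 8 libraries. They were chosen by symbol from the 39533 rows of the count table: the calcineurin regulators RCAN1 and RCAN3, the catalytic calcineurin subunits PPP3CA and PPP3CB, the transcription factor NFATC3, the plasma membrane calcium channels ORAI1, ORAI2 and ORAI3, and the store sensors STIM1 and STIM2. The set was built around RCAN1, which had been picked for its level in self-seeded cells against primary tumour cells. RCAN1's values are therefore a description, with no test. All 10 symbols have a row, and 9 of them, all but ORAI1, passed the filter on low counts.

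The cells are HCT116, an established human colorectal cancer line, recovered from a model in which circulating tumour cells return to a tumour. The groups are self-seeded cells (TSC, 3 libraries), circulating tumour cells (CTC, 2 libraries) and primary tumour cells (PC, 3 libraries). The labels give the primary tumour as the tissue of TSC and PC and blood as that of CTC, and no treatment, genotype change or host animal is named in the sources used here. The series title speaks of liver cancer, whereas the labels name the colorectal line. The labels do not tie replicates to separate cultures or animals, and p-values therefore measure the spread between these libraries, which may be technical.

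Stores of calcium in the endoplasmic reticulum are watched by STIM1 and STIM2. When the stores empty, STIM proteins open ORAI channels in the plasma membrane, and the calcium that enters binds calmodulin and activates the phosphatase calcineurin. Calcineurin removes phosphates from NFAT factors, which then enter the nucleus. RCAN1 binds and restrains calcineurin, and its short isoform is itself induced through NFAT, so its transcript is widely used as a readout of the route.

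Total counts were 4578869 to 14717833 in TSC, 957607 and 10524069 in CTC replicates 1 and 2, and 10864761 to 19264595 in PC. Levels are given as CPM, counts per 1000000 of a library's total over tested genes after TMM scaling. The floor that a count of 0 allows, 3 counts, was worth 2.99 CPM in the shallow CTC replicate 1 but 0.286 CPM in CTC replicate 2. In TSC and PC this floor lay between 0.156 and 0.669 CPM. Floors and intervals cover counting error alone.

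The epithelial genes EPCAM, KRT8, CDH1 and CDX2 were counted in every library, whereas CEACAM5, CLDN7 and VIL1 lay at or under 0.998 CPM in all 8. Of 15 leukocyte markers, the summed level was 417 and 152 CPM in CTC replicates 1 and 2. It was 5.29 to 17.3 CPM over the TSC libraries, against 9.24 to 12.0 CPM over PC. CD3E, NKG7, S100A8 and LST1 were at 0 in all libraries, and PTPRC, which defines leukocytes, was at 31.9 and 7.63 CPM in CTC. Of 8 erythroid markers, the sum was 247 and 331 CPM in CTC, with 80.4 to 93.5 CPM over TSC, against 50.4 to 63.3 CPM over PC. In TSC and PC nearly all of that sum was HBD, at 80.3 to 92.95 CPM over TSC and 50.3 to 61.7 CPM over PC. HBB, which defines red cells, was at 164 and 209 CPM in CTC, at most 0.494 CPM in TSC and at most 0.754 CPM in PC, and HBA2 was at 0 in all libraries. Of 5 platelet markers, PPBP, PF4 and GP9 were at 0 in all libraries and no sum exceeded 2.00 CPM. The part of blood cell RNA in the CTC values below was not tested. In these bulk libraries, fewer cells of a type and less RNA per cell cannot be told apart.

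RCAN1 lies on the minus strand of chromosome 21 (34516442 to 34615113, RefSeq on GRCh38, the build named hg38 in the submitters' processing notes). GENCODE release 29 lists 14 RCAN1 transcripts, 5 of which begin near the far end of the gene and 8 of which begin much closer to its shared last exons. The deposited count is 1 number per gene, so it sums these forms and cannot tell which start was used. The stretches upstream of the outermost annotated transcript start at each place are shown because only one of them holds the letters GGAAA, the core that NFAT proteins bind. Matches on both strands (GGAAA and TTTCC) are in capitals. The letters GGAA within the motif are also the core bound by ETS factors.
RCAN1 internal start, chr21:34526964-34527072, minus strand: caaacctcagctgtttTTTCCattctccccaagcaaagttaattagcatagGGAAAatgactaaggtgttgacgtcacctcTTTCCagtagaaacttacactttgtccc
RCAN1 distal start, chr21:34615143-34615363, minus strand: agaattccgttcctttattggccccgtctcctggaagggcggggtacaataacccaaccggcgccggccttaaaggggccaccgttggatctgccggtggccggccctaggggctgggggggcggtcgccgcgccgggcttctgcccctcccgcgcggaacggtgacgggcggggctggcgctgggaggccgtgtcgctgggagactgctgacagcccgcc

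The internal stretch held 3 matches in 109 bases and the distal stretch 0 in 221. In RefSeq's table of start windows (GRCh38.p14, 300 bases each), the window at the internal start held 5 matches, and 0.74% of 35116 windows held 5 or more. In the first 109 bases, 0.92% of windows held 3 or more. RCAN1 has 6 windows in that table, and the one described here was the richest, while the others held 0 or 1 matches. The shares are per window and not per gene. Of the 10 genes, 7 have an entry in that table. ORAI2, ORAI3, STIM2 and NFATC3 had 0 matches in their windows, while STIM1 and RCAN3 had at most 1 in any window. A match describes the letters and does not show that a factor binds.

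The forms made from these starts also differ in their first coding exon, of which the opening 60 bases are shown with the start codon in capitals, as the part of the gene by which reads could tell them apart. That exon has 87 coding bases in the short form and 252 in the long form.
RCAN1 short form: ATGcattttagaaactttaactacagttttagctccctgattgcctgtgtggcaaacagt
RCAN1 long form: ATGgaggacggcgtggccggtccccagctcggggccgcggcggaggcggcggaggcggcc

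RCAN1 was the member that set TSC apart from PC. Its level was 96.7, 134 and 91.8 CPM in TSC replicates 1 to 3, against 15.7, 14.6 and 19.9 CPM in PC replicates 1 to 3. The lowest TSC library stood well above the highest PC library. The groups averaged 108 ± 23.2 CPM in TSC and 16.7 ± 2.81 CPM in PC (SD, n = 3 each), a 6.41-fold difference (log2 fold change 2.68 ± 0.32 SE). In this comparison 52 of 14255 tested genes had a larger log2 fold change. RCAN1 was picked for its level here, so that rank follows from the choice and is no test. The values come from 434 to 1902 counts per TSC library and 159 to 384 per PC library.

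In circulating cells RCAN1 was uneven. It was at 32.9 CPM (33 counts, 95% exact Poisson interval 22.7 to 46.2 CPM) in CTC replicate 1 and at 114 CPM (1191 counts, 107 to 120 CPM) in CTC replicate 2, so the intervals of these libraries do not meet. Both CTC libraries lay above all PC libraries, and replicate 2 lay within the TSC range while replicate 1 lay below it. The fitted log2 fold change against PC was 2.23 ± 0.35, and it was 2.75 without CTC replicate 1 and 0.96 without CTC replicate 2. For TSC against CTC the log2 difference was 0.45 ± 0.35 in all libraries, −0.077 without CTC replicate 1 and 1.71 without CTC replicate 2. The order of the group means was thus TSC, CTC and PC, with TSC and CTC overlapping. CTC replicate 1, with the lower RCAN1 level, had the higher leukocyte marker sum and the smallest library. Its erythroid marker sum was the lower, at 247 CPM against 331 CPM in CTC replicate 2. A link of these to the RCAN1 level was not tested.

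**Figure D1:**
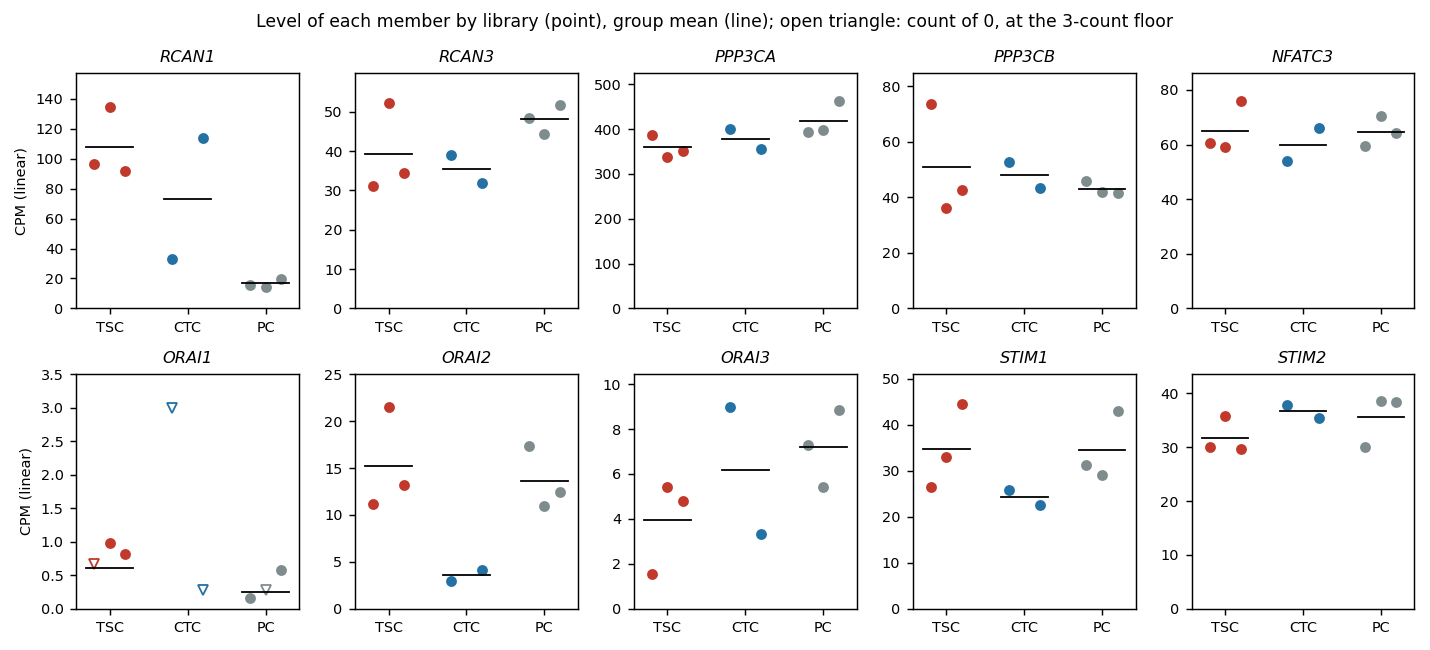
Level of each of the 10 genes in CPM on a linear axis starting at 0, 1 point per library in TSC, CTC and PC, with the group mean as a line and open triangles for counts of 0 drawn at the floor of 3 counts. RCAN1 is above 91 CPM in all TSC libraries and under 20 CPM in all PC libraries, and ORAI2 is lowest in CTC.

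RCAN3, the related calcineurin regulator (chromosome 1, 24502344 to 24541040), was not higher in TSC or CTC than in PC. It was at 31.2, 52.3 and 34.5 CPM in TSC, at 38.9 and 31.9 CPM in CTC and at 48.3, 44.3 and 51.8 CPM in PC. TSC and PC overlapped, while both CTC libraries lay below PC. Neither difference was called (log2 fold change −0.28 ± 0.21 in TSC against PC, adjusted p = 0.695, and −0.48 ± 0.26 in CTC against PC, adjusted p = 0.276). These and all later adjusted p come from the quasi-likelihood test of edgeR, adjusted by Benjamini-Hochberg over all tested genes, unless another tool is named. Exons of RCAN3 overlap those of AL445686.2 on the other strand over 1075 bases, and the effect on its counts was not tested.

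Put per kilobase of longest transcript, so that paralogs can be set beside each other, RCAN1 made up 86.1% ± 1.48 of the summed RCAN1, RCAN2 and RCAN3 level in TSC, 77.8% ± 16.7 in CTC and 42.3% ± 1.30 in PC (SD, n = 3, 2 and 3). The CTC libraries were at 66.0% and 89.6%. Within a library, the ratio of RCAN1 to RCAN3 on the same scale was 6.20 to 7.49 in TSC, 2.04 and 8.61 in CTC and 0.783 to 0.930 in PC. Per kilobase, RCAN3 was thus the more abundant of the pair in every PC library and RCAN1 in every TSC and CTC library. Since RCAN1 was picked for its level in TSC against PC, its share and ratio follow in part from that choice. They are no separate result. Without division by length, the RCAN1 share of counts was 72.7% in TSC, 61.7% in CTC and 24.4% in PC. In CTC replicate 1 that share was 45.2%, with 33 RCAN1 counts against 39 of RCAN3, so the order of the pair turns there. RCAN2, a further family member, was low, at 3 to 24 counts in TSC, 1 and 0 in CTC and 21 to 99 in PC.

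Neither catalytic subunit gene of calcineurin was called. PPP3CA (chromosome 4, 101023418 to 101347526), the most abundant of the 10 genes per kilobase, was at 386, 339 and 352 CPM in TSC, 401 and 355 CPM in CTC and 394, 399 and 462 CPM in PC. Every TSC library was below every PC library, but the difference was small and not called (log2 fold change −0.22 ± 0.15, adjusted p = 0.652). PPP3CB, the second catalytic subunit gene (chromosome 10, 73436433 to 73496024), was at 73.8, 36.4 and 42.7 CPM in TSC, 52.9 and 43.5 CPM in CTC and 45.8, 41.9 and 41.6 CPM in PC, with TSC replicate 1 highest. It was not called in TSC against PC (0.23 ± 0.24, adjusted p = 0.793) or CTC against PC (0.13 ± 0.28, adjusted p = 0.810). PPP3CA held 78.7% ± 2.65 of the summed level per kilobase of PPP3CA, PPP3CB and PPP3CC in TSC, 79.1% ± 0.283 in CTC and 83.3% ± 1.97 in PC. By counts alone its share was 84.9% in TSC, 85.4% in CTC and 88.2% in PC.

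NFATC3, one of the calcium-regulated NFAT factors (chromosome 16, 68085370 to 68229259), had overlapping levels in all groups. Its level was 60.4, 59.1 and 75.8 CPM in TSC, 53.9 and 66.1 CPM in CTC and 59.3, 70.3 and 64.1 CPM in PC. The log2 fold change was 0.01 ± 0.18 in TSC against PC (adjusted p = 0.990) and −0.08 ± 0.21 in CTC against PC (adjusted p = 0.847). Exons of NFATC3 overlap those of ESRP2 (149 bases) and AC020978.5 (2796 bases) on the other strand. They also overlap AC020978.7 (1385 bases) and AC130462.1 (285 bases) on the same strand. No source used here gives the strand setting of the counting.

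**Figure D2:**
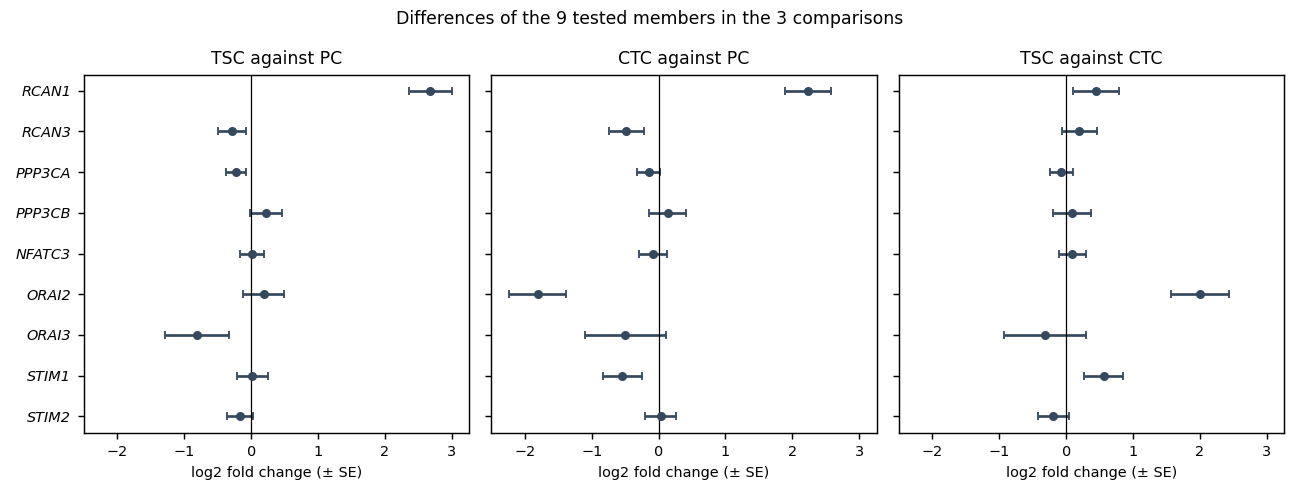
Log2 fold change with its SE (horizontal bars) for the 9 tested genes in TSC against PC, CTC against PC and TSC against CTC, from 1 fit over 8 libraries. RCAN1 lies far to the right in TSC and CTC against PC, ORAI2 lies at −1.81 in CTC against PC and 2.00 in TSC against CTC, and the other genes lie less than 2 SE from 0.

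Among the channels, ORAI2 fell in circulating cells. ORAI2, on chromosome 7 (102433575 to 102456825), was at 11.1, 21.5 and 13.2 CPM in TSC, 2.99 and 4.10 CPM in CTC and 17.3, 10.95 and 12.4 CPM in PC. Both CTC libraries were below all others, although replicate 1 rests on 3 counts (95% exact Poisson interval 0.617 to 8.75 CPM) and replicate 2 on 43 (2.97 to 5.52 CPM). ORAI2 was 3.51-fold lower in CTC than in PC (log2 fold change −1.81 ± 0.43, adjusted p = 0.0332), and 3.998-fold higher in TSC than in CTC (2.00 ± 0.43, adjusted p = 0.0453). These comparisons share the CTC libraries. TSC and PC overlapped (0.19 ± 0.30, adjusted p = 0.879).

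The ORAI2 call against PC was lost without either CTC library, any PC library or TSC replicate 3, with adjusted p from 0.0554 without CTC replicate 1 to 0.284 without CTC replicate 2. The call in TSC against CTC was lost in every such fit except the one without TSC replicate 1, with adjusted p from 0.0659 without PC replicate 3 to 0.229 without CTC replicate 2. The log2 fold change kept its sign in all of them, at −2.18 to −1.60 in CTC against PC and 1.65 to 2.37 in TSC against CTC. The exons of ORAI2 overlap those of ALKBH4 on the other strand over 584 bases, so reads of these genes may not be told apart.

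ORAI3, a channel gene found in mammals (chromosome 16, 30949068 to 30954938), had few counts, at 1.56, 5.43 and 4.79 CPM in TSC, 8.98 and 3.34 CPM in CTC and 7.29, 5.43 and 8.83 CPM in PC. The groups overlapped and it was not called in TSC against PC (−0.81 ± 0.48, adjusted p = 0.599) or CTC against PC (−0.50 ± 0.61, adjusted p = 0.660). Exons of ORAI3 overlap those of AC135048.1 on the same strand over 1397 bases in GENCODE release 29. The effect of this on the ORAI3 counts was not tested. ORAI1, which encodes the main pore subunit of the calcium release-activated channel in many cells, was close to 0, with 0, 14 and 9 counts in TSC, 0 and 0 in CTC and 2, 0 and 11 in PC, at most 0.988 CPM. GENCODE release 29 tags ORAI1 (chromosome 12, 121626530 to 121643109) as lying on an error of the reference genome, the only 1 of the 10 genes with that tag. Whether this lowered its counts was not tested, so the low values do not show that the gene was silent.

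Per kilobase, ORAI2 held 44.0% ± 13.8 of the summed ORAI level in TSC, 13.2% ± 9.64 in CTC and 27.5% ± 5.69 in PC. By counts alone its share was 78.3% in TSC, 40.1% in CTC and 64.6% in PC. Per kilobase the ORAI2 share was 6.37% in CTC replicate 1 and 20% in CTC replicate 2. These rest on 12 and 78 counts of all ORAI genes together, so the CTC mean and SD are uncertain. ORAI1 is part of the sum. The longest ORAI2 transcript, at 10811 bases, is much longer than the 2206 of ORAI3, which moves the level of the share but not the order of the groups.

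The sensors STIM1 and STIM2 were present at similar levels per kilobase, with a STIM1 to STIM2 ratio of 0.751 to 1.78 over the 8 libraries. STIM1 (chromosome 11, 3854604 to 4093210) was at 26.5, 33.0 and 44.6 CPM in TSC, 25.9 and 22.5 CPM in CTC and 31.3, 29.1 and 43.0 CPM in PC. The CTC libraries were lowest, but STIM1 was not called in CTC against PC (−0.54 ± 0.29, adjusted p = 0.267) or in TSC against CTC (0.56 ± 0.29, adjusted p = 0.348). STIM2, which responds to smaller falls of store calcium (chromosome 4, 26860841 to 27025381), was at 30.1, 35.7 and 29.6 CPM in TSC, 37.9 and 35.5 CPM in CTC and 30.1, 38.5 and 38.4 CPM in PC, with log2 fold changes of −0.16 ± 0.19 in TSC against PC (adjusted p = 0.825) and 0.03 ± 0.23 in CTC against PC (adjusted p = 0.951). STIM1 held 55.8% ± 7.18 of the STIM level per kilobase in TSC, 43.8% ± 1.27 in CTC and 53.1% ± 5.22 in PC, and 39.7% of counts in CTC.

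**Figure D3:**
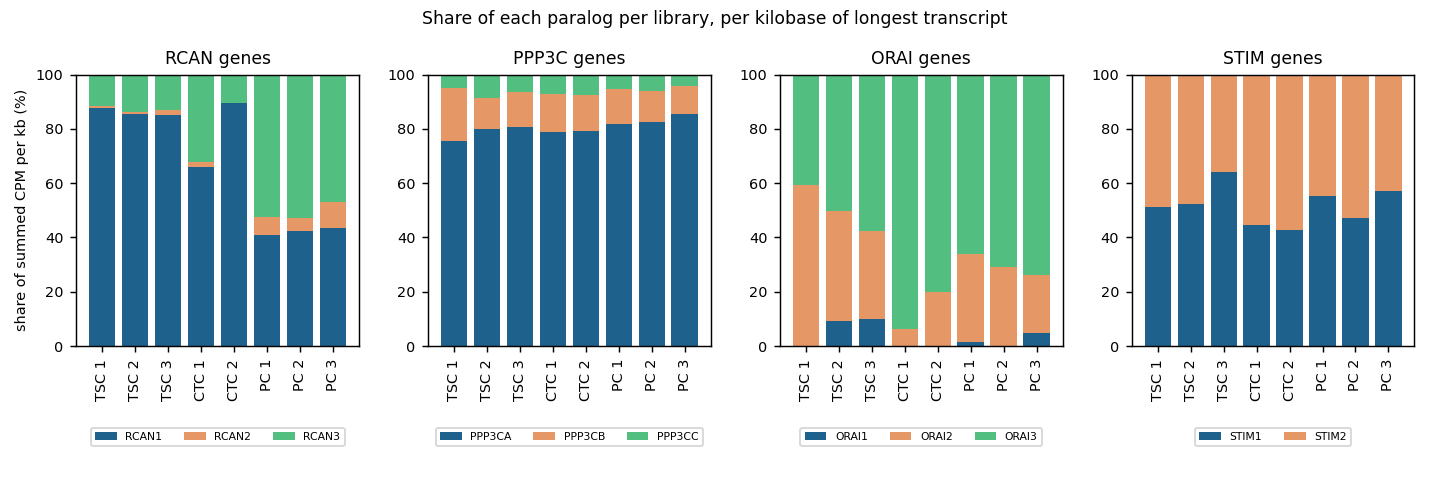
Share in percent of each paralog in the summed CPM per kilobase of longest transcript, 1 bar per library, for the RCAN, catalytic calcineurin (PPP3C), ORAI and STIM genes. RCAN1 takes 85.1% to 87.8% of the RCAN bar in TSC and 41.0% to 43.6% in PC, while the PPP3C and STIM bars vary less. RCAN1 was picked for its level in TSC against PC, so its shift follows in part from the choice.

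Apart from RCAN1, 0 of 8 tested members were called in TSC against PC, where 0.505% of all tested genes were called, 0.224% as higher in TSC and 0.281% as lower. DESeq2's Wald test also called 0, and 0 had an unadjusted p under 0.05 in edgeR. Over all tested genes, an unadjusted p under 0.05 was reached by 10.3% in TSC against PC, 23.6% in CTC against PC and 16.7% in TSC against CTC. The 8 log2 fold changes ran from −0.81 to 0.23, with a median of −0.07 against 0.01 over all tested genes. TSC lay below PC without overlap for 1 of 8 (PPP3CA) and above it for 0, against 9.9% and 8.96% of tested genes. In CTC against PC, 1 of 8 fell (ORAI2) and 0 rose, where 3.92% of tested genes were called, 2.52% as lower in CTC and 1.4% as higher. The median of the 8 was −0.32, against −0.04 over all tested genes. RCAN3, ORAI2 and STIM1 lay below PC in both CTC libraries without overlap, 3 of 8 members with 0 above it, where 24.7% of tested genes lay below and 19.9% above. In TSC against CTC, 1 of 8 was higher (ORAI2), where 0.898% of tested genes were called, 0.372% as higher in TSC and 0.526% as lower. The median of the 8 was 0.09, against 0.06 over all tested genes. TSC lay above CTC without overlap for 2 of 8 (ORAI2 and STIM1) and below it for 0, against 15.4% and 13% of tested genes.

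Other genes of the route were counted in 5 lists. Among 8 tested calcineurin partners, the median log2 fold change was 0.24 in TSC against PC and 0.04 in CTC against PC. CABIN1, an inhibitor of calcineurin, was at −0.49 ± 0.25 in TSC against PC (adjusted p = 0.531). In TSC against CTC, 0 of the 8 were called by edgeR and 1 by DESeq2 (CHP1, a calcineurin-like inhibitor, 0.70 ± 0.20 and adjusted p = 0.117 in edgeR). In that comparison edgeR called 0.898% of all tested genes, and DESeq2 called 404 of the 14071 genes it tested. RCAN2 was not called there (adjusted p = 0.255). With 1 CTC count in all, its fitted log2 fold change ran from 0.62 without CTC replicate 2 to 7.18 without CTC replicate 1. Of the 8, 3 had an unadjusted p under 0.05, against 16.7% of all tested genes.

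Of 8 tested genes for other NFAT factors and for kinases that act on NFAT, 0 were called in any of the 3 comparisons, by edgeR or DESeq2. In each, 1 of the 8 had an unadjusted p under 0.05, against 10.3% (TSC against PC), 23.6% (CTC against PC) and 16.7% (TSC against CTC) of all tested genes. NFATC2 was at 41.2, 54.8 and 55.3 CPM in TSC, 35.9 and 33.7 CPM in CTC and 31.5, 32.9 and 39.8 CPM in PC. TSC lay above the other groups without overlap, but the difference was not called against PC (0.54 ± 0.19, adjusted p = 0.345) or CTC (0.55 ± 0.23, adjusted p = 0.253). NFAT5, which responds to osmotic stress and lacks the calcineurin docking region of its relatives, was at −0.43 ± 0.23 in TSC against PC (adjusted p = 0.569) and −0.62 ± 0.27 in CTC against PC (adjusted p = 0.184). The kinase genes DYRK2 (0.31 ± 0.20 in CTC against PC, adjusted p = 0.356) and DYRK1A (−0.21 ± 0.17 in TSC against CTC, adjusted p = 0.582) were not called.

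Of 17 tested genes for store release, calcium pumps and regulators of STIM and ORAI, 0 were called in TSC against PC by edgeR or DESeq2 (3 of 17 at an unadjusted p under 0.05, against 10.3% of all tested genes). In CTC against PC, edgeR called 1 of 17 lower and 0 higher, against 2.52% and 1.4% of all tested genes, with a median of −0.23. DESeq2 called 4 of the 17, where it called 1097 of the 14517 genes it tested, 646 as lower and 451 as higher. Of the 4, PLCG1, ITPR3 and PLCB3 were lower and ATP2B1, a calcium pump gene, was higher (0.75, adjusted p = 0.0117 in DESeq2 and 0.0506 in edgeR). PLCB3 and ATP2B1 are named after their values were seen. The gene called by both tools was PLCG1, a phospholipase that makes the messenger that opens the stores, at 43.2, 45.2 and 41.2 CPM in TSC, 34.9 and 21.8 CPM in CTC and 60.8, 60.1 and 56.0 CPM in PC. TSC and CTC lay below PC, by −1.16 ± 0.24 in CTC (adjusted p = 0.0196) and −0.45 ± 0.19 in TSC, which was not called (adjusted p = 0.437). The CTC call was lost without CTC replicate 2 (−0.76, adjusted p = 0.286) or any PC library (adjusted p from 0.061 to 0.0676). ITPR1, a store release channel gene, was at −0.56 ± 0.23 in TSC against PC (adjusted p = 0.420). In TSC against CTC, 0 were called by edgeR or DESeq2 and 4 of 17 had an unadjusted p under 0.05, against 16.7% of all tested genes. PLCG1 (0.71 ± 0.24, adjusted p = 0.164) and the store release channel gene ITPR3 (0.87 ± 0.30, adjusted p = 0.168) came first by p.

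Genes known to be induced through calcineurin and NFAT, mostly from work on lymphocytes, were not called higher in TSC or CTC than in PC. Of 15 on the list, 4 (IL2, TNF, FASLG and CD40LG) had no count in any library, and 8 passed the filter. Since a low gene passes the filter only where it is counted, these 8 do not stand for the whole list. In TSC against PC 0 were called by edgeR or DESeq2, 3 of 8 had an unadjusted p under 0.05, against 10.3% of all tested genes, and the median was −0.41. EGR2 was at 5.13, 11.8 and 14.02 CPM in TSC and 43.5, 73.2 and 77.7 CPM in PC (−2.60 ± 0.67, adjusted p = 0.135), and EGR3 at −1.01 ± 0.33 (adjusted p = 0.293). Both encode zinc finger transcription factors, and both were lower in every TSC library than in any PC library. With NR4A3, TSC lay below PC without overlap for 3 of 8, against 9.9% of all tested genes. PTGS2 lay above PC in every TSC library, 1 of 8 against 8.96%.

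In CTC against PC, edgeR called 5 of the 8 lower and 0 higher, against 2.52% and 1.4% of all tested genes. The median was −2.26, the same with PTGS2 at its bound, against −0.04 over all tested genes. DESeq2 did not call NR4A2 (adjusted p = 0.0889) but called the other 4. NR4A2 and PTGS2 were lost with the replicate block (adjusted p = 0.0654 and 0.121), and PTGS2 with only the CTC and PC libraries in the fit (adjusted p = 0.06). The nuclear receptor genes NR4A1, NR4A2 and NR4A3 and the gene EGR3, which also respond quickly to signals other than NFAT, fell. NR4A1 was at 66.8 and 58.3 CPM in CTC and 198, 290 and 230 CPM in PC (log2 fold change −1.95 ± 0.40, adjusted p = 0.0189). NR4A2 was at 76.8 and 27.9 CPM in CTC against 146 to 203 CPM in PC (−1.96 ± 0.49, adjusted p = 0.0387), NR4A3 at 34.9 and 7.44 CPM against 67.6 to 108 CPM (−2.57 ± 0.54, adjusted p = 0.0214) and EGR3 at 12.0 and 3.15 CPM against 28.5 to 45.7 CPM (−2.92 ± 0.51, adjusted p = 0.00811). For all 4 genes the CTC libraries lay below PC, with replicate 2 the lower. Of the 8 tested genes, 6 lay below PC in CTC without overlap and 0 above, against 24.7% and 19.9% of all tested genes. The other 2, CXCL8 and MYC, had positive log2 fold changes and were not called. CXCL8 was at 0.998 and 5.63 CPM in CTC (1 and 59 counts) and 1.51, 0.184 and 0.571 CPM in PC (2.355 ± 0.90, adjusted p = 0.1335). MYC was at 0.09 ± 0.19 (adjusted p = 0.811). Both are named after their values were seen.

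PTGS2, which encodes cyclooxygenase-2, was at 3.34, 3.53 and 3.71 CPM in TSC, at 0 counts in both CTC libraries and at 1.68, 0.92 and 2.28 CPM in PC. Against the floor of 3 counts over the CTC group it was at least 6.74-fold lower in CTC than in PC (adjusted p = 0.0438) and at least 13.7-fold higher in TSC than in CTC (adjusted p = 0.043). It was the single member of this list called in TSC against CTC, 1 of 8 against 0.372% of all tested genes called higher. All its PC levels lie below the floor of the shallow CTC replicate 1 (2.99 CPM), and its TSC levels lie just above it. The count of 0 in that library therefore cannot show a fall from PC. The bounds rest mainly on CTC replicate 2, where the floor was 0.286 CPM. These calls are no independent sign of the route, because the lists were drawn up with earlier results of these data known.

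Single libraries decided several of these calls. Without CTC replicate 2, 0 of the 5 genes were called in CTC against PC, with adjusted p from 0.242 to 0.426, and the log2 fold change of EGR3 was −1.67, that of NR4A2 −1.26 and that of NR4A3 −1.40, while NR4A1 was at −1.85, near its value in all libraries. NR4A1 was also lost without PC replicate 2 (−1.78, adjusted p = 0.0562), NR4A3 without PC replicates 2 or 3 (−2.36 and −2.47, adjusted p = 0.0624 and 0.065), and NR4A2 and PTGS2 without any PC library or TSC replicate 3 (0.0583 to 0.125). The PTGS2 call in TSC against CTC was kept without TSC replicate 1 or CTC replicate 1 and lost without each of the other 6 libraries (0.0636 to 0.308). Leukocyte and erythroid markers were far higher in CTC, as given above, and their part in these differences was not tested.

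**Figure D4:**
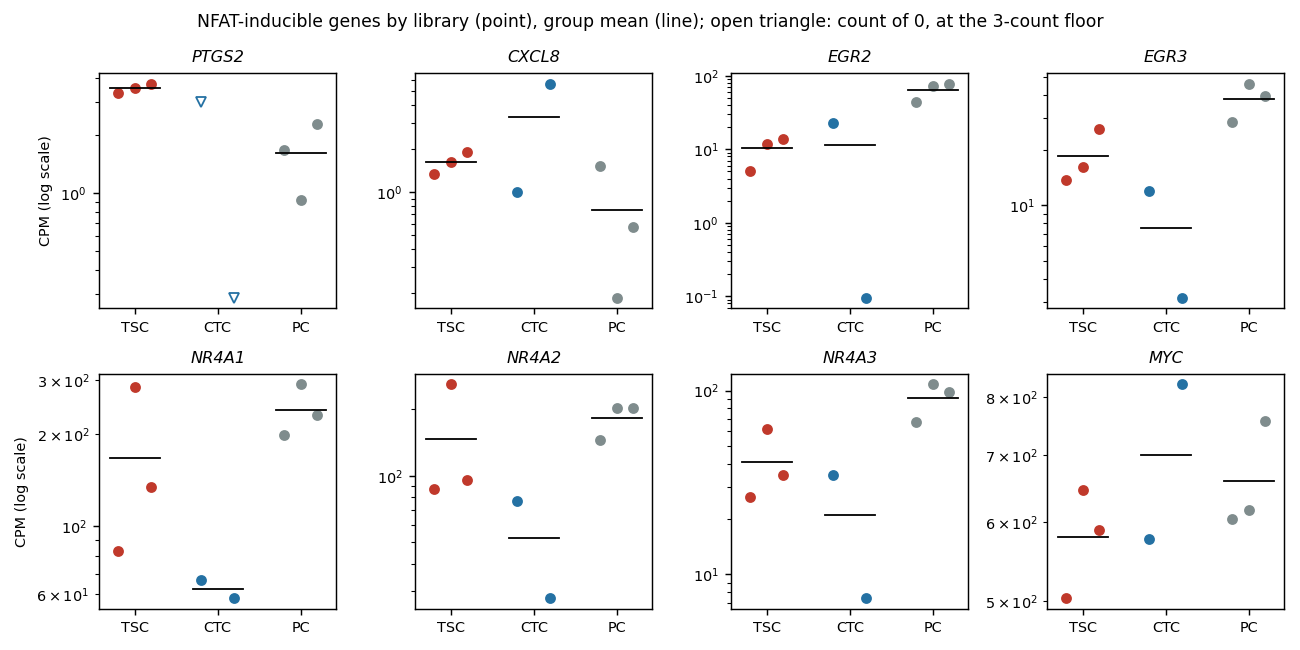
CPM on a log axis of the 8 tested genes known to be induced through calcineurin and NFAT, 1 point per library in TSC, CTC and PC, with the group mean as a line and open triangles for counts of 0 drawn at the floor of 3 counts. The NR4A and EGR3 points are lower in both CTC libraries than in PC, and PTGS2 has no count in CTC.

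Of 6 other substrates of calcineurin, 0 were called in any comparison by edgeR or DESeq2. In TSC against PC, CTC against PC and TSC against CTC, edgeR called 0.505%, 3.92% and 0.898% of all tested genes. In the same order, 0, 1 and 0 of the 6 had an unadjusted p under 0.05, against 10.3%, 23.6% and 16.7% of all tested genes. DNM1L, whose product divides mitochondria, was at 0.48 ± 0.18 in CTC against PC (adjusted p = 0.134) and −0.37 ± 0.18 in TSC against CTC (adjusted p = 0.325). CRTC3, a CREB coactivator gene, was at −0.59 ± 0.31 in CTC against PC (adjusted p = 0.266). CRTC1, of the same family, was at −0.25 ± 0.24 in TSC against PC (adjusted p = 0.775). TFEB, a lysosomal regulator gene, was at −0.40 ± 0.53 in TSC against PC (adjusted p = 0.849) and −1.28 ± 0.63 in TSC against CTC (adjusted p = 0.323).

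The genes whose log2 CPM followed RCAN1 most closely over the 8 libraries lay outside the route. Among 9481 candidates, Pearson's r with RCAN1 was 0.98 for SLC16A6, a transporter gene, for GALNT7, a gene of O-linked glycosylation, and for PLPP1, a lipid phosphatase gene. It was 0.97 for ETFB, a mitochondrial electron carrier gene, MAN1A1, a Golgi mannosidase gene, EFHD2, which encodes a calcium-binding protein, SLC35B2, a Golgi transporter gene, and LMNA, the lamin A/C gene. MAN1A1 was at 474, 563 and 461 CPM in TSC, 124 and 343 CPM in CTC and 83.9, 92.8 and 125 CPM in PC. Its TSC libraries lay above all others, and, as for RCAN1, CTC replicate 1 lay far below CTC replicate 2. These 8 genes were picked for the highest r, so their values are high by choice. Among the 8 other tested members, which were not picked by r, it ran from −0.77 for PPP3CA to 0.10 for PPP3CB. The members' r was not set against the spread over all candidates, so no contrast is drawn. These correlations describe 8 points that share 3 groups and unequal depth.

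**Figure D5:**
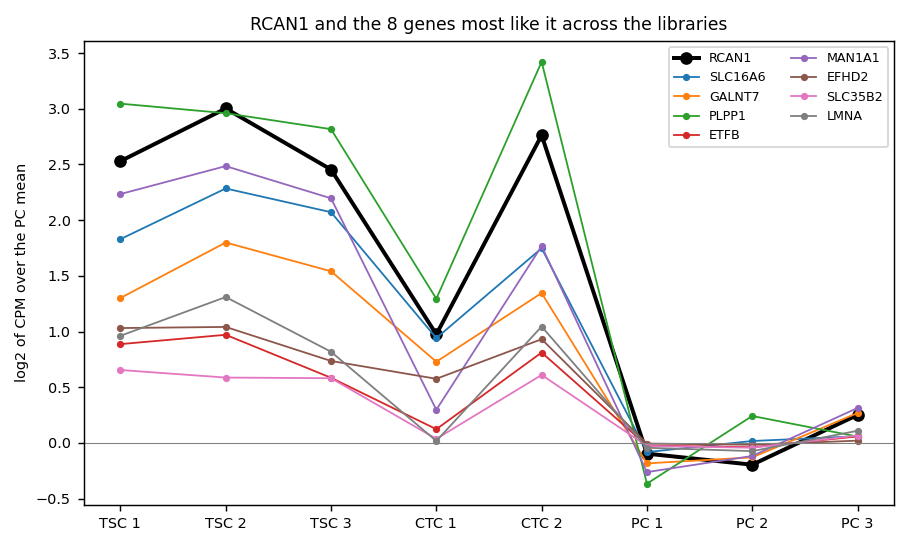
Log2 of CPM over the PC mean in each library for RCAN1 (black) and the 8 genes with the highest Pearson correlation to it. All 9 lines are high in the TSC libraries and CTC replicate 2 and near 0 in PC, with a dip at CTC replicate 1.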

How the data were processed

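RNA was measured in 8 libraries, grouped by title. Total RNA was depleted of ribosomal RNA, per the labels' protocols. The authors deposited counts per gene symbol, whole numbers that were not normalized. STAR 2.5.3a, featureCounts 1.5.3 and hg38 are named, per the submitters' processing notes. No source used here gives the annotation, the strand setting or any removal of host reads, and reads of overlapping genes could move between them. No pair of libraries agreed within sampling noise (28 pairs, chi-square per degree of freedom of at least 8.05 over genes with at least 10 summed counts).

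All 8 libraries entered 1 fit in R 4.3.3 with edgeR 4.0.16, using TMM scaling, its filterByExpr rule on groups and its quasi-likelihood F test. This left 14255 genes, and called means an adjusted p (Benjamini-Hochberg over all of them) under 0.05. The SE is the log2 fold change divided by the square root of F. Levels per kilobase use the longest GENCODE release 29 transcript. On simulated counts for TSC against PC (13781 genes), 33% of genes changed 2-fold and 85.7% of genes changed 4-fold were recovered; for CTC against PC (13752 genes) the shares were 18.9% and 71%.

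The members and lists were chosen with earlier results of these data known. Named genes are the 10 members, called members of the 5 lists, the 2 with the smallest p where a list had no call, and the 8 genes most like RCAN1 among those averaging a log2 CPM of 3 or more, leaving out clones, small RNAs, antisense transcripts and pseudogenes. Defining markers are also named. Alternatives were DESeq2 size factors, no filter, DESeq2 1.42.0, only the groups compared, the replicate number as a block, and each library left out in turn. Some results for named genes are not reported here.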

Additional observations from a re-analysis of the deposited data

How the results depend on the processing

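RCAN1 kept its direction in TSC against PC under all alternatives (2.48 to 2.82 on the log2 scale), and in CTC against PC (0.96 to 2.75, the lowest without CTC replicate 2). In TSC against CTC it was −0.077 without CTC replicate 1 and 1.71 without CTC replicate 2, the lowest and highest of the fits that leave out 1 library. A fit that leaves 1 CTC library assumes that it varies like the other groups. Of the other 8 tested members, 0 were called in TSC against PC under every alternative run. In CTC against PC there was 1 (ORAI2), with 0 to 1 when a library was left out and 0 with the replicate block. In TSC against CTC there was 1 (ORAI2), with 0 to 1 when a library was left out and 0 with only the 2 groups compared or with the replicate block.

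Calls over the 5 lists in TSC against PC were 0, with 4 without the filter, 1 by DESeq2, 1 with only the 2 groups compared and 0 to 2 when a library was left out. In CTC against PC they were 7, with 16 without the filter, 11 by DESeq2, 12 with only the 2 groups compared, 4 with the replicate block and 0 to 14 when a library was left out. In TSC against CTC they were 1, with 7 without the filter, 3 by DESeq2, 0 with only the 2 groups compared, 0 with the replicate block and 0 to 7 when a library was left out. The cause was not tested. Without division by length the shares were 72.7% (TSC) and 24.4% (PC) for RCAN1, 78.3% (TSC), 40.1% (CTC) and 64.6% (PC) for ORAI2, 39.7% (CTC) for STIM1, and 84.9% (TSC), 85.4% (CTC) and 88.2% (PC) for PPP3CA.

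Libraries with the same replicate number did not deviate together (TSC with PC 0.03, −0.13 and 0.09 for numbers 1 to 3), so the numbers are not taken as pairs. The depth of CTC replicate 1 limits what can be seen of ORAI1, ORAI2, ORAI3 and PTGS2.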
